A study of Mus musculus with 24 samples.

Results

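The genes described here are 8 genes of antigen presentation by major histocompatibility complex (MHC) molecules: the class II chains H2-Aa, H2-Ab1 and H2-Eb1, the invariant chain Cd74, the class II activator Ciita, the class I heavy chains H2-K1 and H2-D1, and beta-2 microglobulin (B2m). They were chosen by name, 8 of 35855 genes in the files, and each was summed over its transcripts. The data are bulk RNA sequencing of 24 libraries, each made by the SmartSeq2 protocol from 1000 sorted cells of the airway epithelium of the trachea; the mice were naive female C57BL/6 of wild-type genotype, and their ages were not stated. The 3 groups have 8 libraries each: BCAM high (label BCAM HI), BCAM low (BCAM LO), both subsets of basal cells by the series title, and differentiated epithelial cells (DIFFERENTIATED EPCS). BCAM is basal cell adhesion molecule, a laminin-binding surface protein. Each group has 5 libraries of batch 1 (numbered 1 to 5) and 3 of batch 2 (numbered 6 to 8). The labels do not say what a batch was, whether libraries came from separate animals or how the sort gates were set, so p-values measure only the spread between these libraries.

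MHC class I molecules, a heavy chain joined to B2m, are found on nearly all nucleated cells and show peptides from inside the cell to cytotoxic T cells. Class II molecules are pairs of an alpha and a beta chain that show peptides from endosomes to helper T cells. They are abundant on dendritic cells, macrophages and B cells, and epithelial cells of the airway can also make them. The invariant chain guides and plugs new class II molecules, and CIITA, which interferon gamma induces in many cells, switches class II genes on.

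The promoters of the members are shown because both classes are known for short shared promoter elements. RefSeq promoter sequences (GRCm38.p6) were matched for 5 of the 8 genes, and 4 are printed, each as the 180 bases before the start site, 5′ to 3′ on the strand of the gene. H2-K1 had 2 starts, of which the first was used. H2-D1 is not printed, since its window lies within the first exon of another annotated transcript. Capitals mark GCAAC, letters of the X box, and TGATTGG, letters of the Y box, in the class II genes. In the class I genes they mark GATTCCC, letters of the kappa B site, and GAAACTG, letters of the interferon element, which H2-K1 holds as CAGTTTC on the opposite strand. These letters were chosen after the sequences had been seen.
H2-Aa at chr17:34287824-34288003, minus strand: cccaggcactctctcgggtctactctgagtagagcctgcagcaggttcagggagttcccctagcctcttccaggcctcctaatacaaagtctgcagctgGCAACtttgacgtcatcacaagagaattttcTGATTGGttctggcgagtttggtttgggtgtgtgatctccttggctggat
H2-Eb1 at chr17:34305687-34305866, plus strand: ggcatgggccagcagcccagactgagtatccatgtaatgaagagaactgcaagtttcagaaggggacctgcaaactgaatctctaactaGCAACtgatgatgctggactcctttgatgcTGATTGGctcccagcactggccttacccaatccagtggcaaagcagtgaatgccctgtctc
H2-K1 at chr17:34000348-34000527, minus strand: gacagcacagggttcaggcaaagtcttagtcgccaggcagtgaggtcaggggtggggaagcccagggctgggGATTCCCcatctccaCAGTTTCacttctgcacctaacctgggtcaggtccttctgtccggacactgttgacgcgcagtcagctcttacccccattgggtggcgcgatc
B2m at chr2:122147507-122147686, plus strand: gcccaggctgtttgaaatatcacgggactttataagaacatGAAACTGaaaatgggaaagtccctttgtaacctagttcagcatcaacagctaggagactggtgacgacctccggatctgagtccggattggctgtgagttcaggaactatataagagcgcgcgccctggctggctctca

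Counted from the start site, GCAAC begins at -81 and TGATTGG at -50 in H2-Aa, and at -91 and -61 in H2-Eb1. An X box string followed by a Y box string within 50 bases was found in 0.317% of 32496 promoter windows of this length, searched on both strands; GCAAC alone was found in 22.9% and TGATTGG alone in 6.29%. In H2-K1 the kappa B letters begin at -108 and the interferon element letters at -93, and H2-D1 has the same pair at -168 and -153. Both strings together were found in 0.0769% of windows, GATTCCC in 1.93% and GAAACTG in 3.46%. B2m holds the interferon element letters, from -139, without GATTCCC. Other forms of the kappa B site were not searched, so a missing string does not mean a missing site. H2-D1 also holds GCAAC at -14 and TGATTGG on the opposite strand at -53. A match describes letters only, and no binding was measured here.

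Depth ran from 1824619 to 4440072 estimated counts per library, and 12211 genes passed the filter on low counts. Of the members 7 were among them; Ciita, with 1 to 36 counts per library and 171 in all, was not. Markers fixed in lists gave a check of the sorted cells. The 6 basal markers (Krt5, Krt15, Krt17, Trp63, Ngfr, Dlk2) summed to between 4971 and 7695 CPM (counts scaled to library size with TMM factors) in the BCAM libraries and to between 240.2 and 2422 in the differentiated ones. All 6 secretory and all 6 ciliated markers were lower in BCAM high than in the differentiated group (edgeR QL), but the secretory markers summed to 263507 CPM or more in differentiated libraries of batch 1 and to between 12010 and 80947 CPM in those of batch 2. The differentiated libraries also held 6 thyroid markers at a sum of 13796 to 116833 CPM, with 49434 CPM or more in batch 2, against at most 1284 CPM in any BCAM library, and markers of parathyroid and endocrine cells at 17.7 to 29235.5 CPM. By these markers the differentiated libraries held RNA of thyroid and endocrine cells, and its part in the comparisons with this group was not tested. In bulk libraries, fewer cells of a type and less RNA per cell cannot be told apart.

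Per transcript length the class I genes stood above the class II genes in the medians of all 3 groups, while the order among the class II genes differed between groups. In TPM (abundance scaled to transcript length and library size), H2-K1 had the highest group medians of the members, 1474 in the differentiated group, against 977 for BCAM high and 915 for BCAM low. In CPM, which are not scaled to length, H2-D1 had the higher median of these genes in both BCAM groups, as given below. In the order BCAM high, BCAM low, differentiated, B2m followed at 471, 376 and 497, and H2-D1 at 382, 368 and 408; B2m and H2-D1 overlapped in every group. H2-Ab1 had medians of 42.8, 65.6 and 19.7 TPM, H2-Aa 22.7, 47.1 and 8.73, Cd74 21.1, 43.6 and 26.1, and H2-Eb1 20.9, 49.7 and 6.29. Among themselves these class II members overlapped in each group. Ciita lay at 0.608, 0.437 and 0.320 TPM. The level of H2-K1 and H2-D1 together exceeded that of H2-Aa and H2-Ab1 together in each library, with median ratios of 21.4, 12.4 and 63.7 in TPM. H2-K1 and H2-D1 are near-identical in parts to each other and to further class I genes, so the division of reads between them is uncertain. Of H2-K1 counts over all libraries, 21.5% were assigned to a 457-base retained-intron transcript. Of H2-Eb1 counts only 16.3%, 21.2% and 7.35% fell on transcripts annotated as protein coding in BCAM high, BCAM low and differentiated, and about 51.2% in BCAM low fell on a transcript annotated for nonsense-mediated decay.

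The class II chains reached their highest levels in BCAM low libraries of batch 1 and stood far lower in BCAM low libraries of batch 2. H2-Aa, the alpha chain of the I-A molecule (ENSMUSG00000036594, GRCm38 chromosome 17, 34282744 to 34287823, minus strand), ran from 10.6 to 36.1 CPM in BCAM high with a median of 19.97. In BCAM low it ran from 8.07 to 107 CPM with a median of 48.4, and in differentiated from 1.23 to 31.6 CPM with a median of 9.43. The 5 BCAM low libraries of batch 1 held 92.7, 68.3, 47.4, 107 and 49.4 CPM, and the 3 of batch 2 held 14.6, 9.43 and 8.07 CPM. In CPM every BCAM low library of batch 1 lay above all 19 other libraries, and none of batch 2 did. The separation was not complete in TPM, where BCAM low 3, at 43.8, lay below BCAM high 1, at 45.3.

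H2-Ab1, the beta chain that pairs with H2-Aa (ENSMUSG00000073421, chromosome 17, 34257689 to 34269419, plus strand), ran from 11.9 to 60.6 CPM (median 31.7) in BCAM high, from 15.6 to 162 (median 64.1) in BCAM low and from 1.09 to 55.4 (median 23.02) in differentiated. BCAM low was highest by its median, as for H2-Aa, but here the BCAM groups overlapped within batch 1 in CPM as well: BCAM low 3, at 45.8 CPM, lay below BCAM high 1, at 60.6 CPM. H2-Eb1, the beta chain of the I-E molecule (ENSMUSG00000060586, chromosome 17, 34305867 to 34316674, plus strand), ran from 4.74 to 33.0 CPM (median 15.6), from 5.55 to 92.0 (median 44.9) and from 0 to 22.03 (median 7.32). Its 5 BCAM low libraries of batch 1 held 77.6, 62.7, 42.5, 92.0 and 47.2 CPM, all above the highest BCAM high library in CPM. In TPM BCAM low 3, at 39.3, lay below BCAM high 3, at 46.9. C57BL/6 mice are known to lack a working I-E alpha gene, so the I-E beta chain has no usual partner in this strain. Across the 24 libraries, which share groups and batches, log2 CPM of H2-Aa had Pearson r of 0.92 with H2-Ab1 and 0.96 with H2-Eb1, given as a description.

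**Figure D1:**
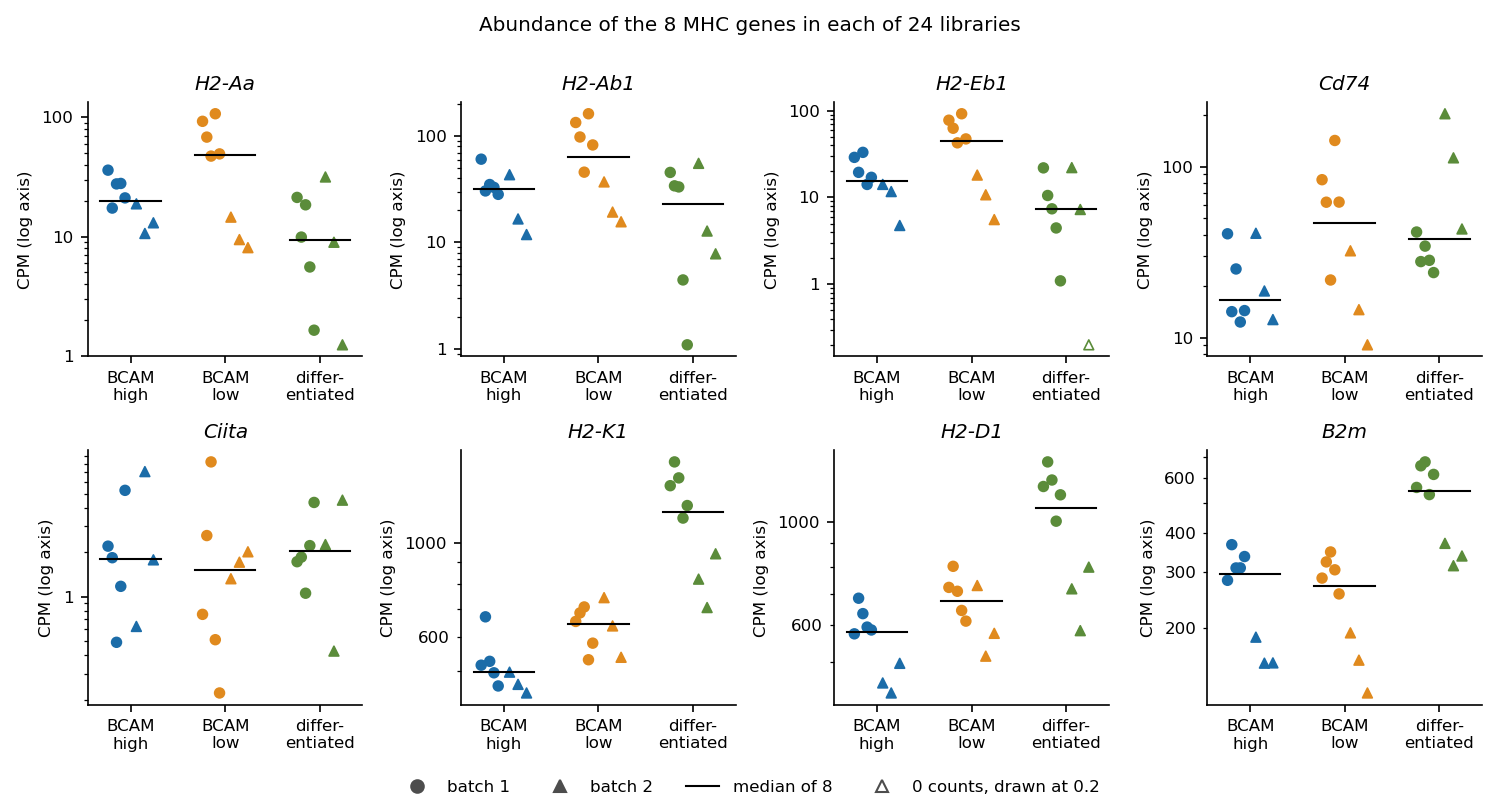
CPM on log axes for the 8 genes in each library, by group (colour) and batch (circles for batch 1, triangles for batch 2), with a bar at the median of 8 libraries. For H2-Aa the BCAM low circles lie at 47.4 to 107 CPM and the BCAM low triangles at 8.07 to 14.6 CPM; for H2-K1, H2-D1 and B2m the differentiated libraries lie highest in each batch apart from overlaps of BCAM low in batch 2 for H2-K1 and H2-D1. The open triangle is a library with 0 counts of H2-Eb1, drawn at 0.2.

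Cd74 (ENSMUSG00000024610, chromosome 18, 60803848 to 60812652, plus strand) had another pattern, with high libraries in BCAM low of batch 1 and in differentiated of batch 2. It ran from 12.3 to 40.8 CPM (median 16.6) in BCAM high and from 9.08 to 142 (median 47.1) in BCAM low. In the differentiated group the 5 libraries of batch 1 held 24.02 to 41.5 CPM, and the 3 of batch 2 held 203.9, 113 and 43.2 CPM. The ratio of Cd74 to H2-Aa in TPM had a median of 4.52 in the differentiated libraries (1.89 to 21.9), 0.912 in BCAM high (0.396 to 1.83) and 1.13 in BCAM low (0.456 to 1.75), so that no differentiated library overlapped with a BCAM library in this ratio. The gap from 1.83 to 1.89 was narrow. H2-Aa had 3, 3 and 10 counts in differentiated 5, 8 and 4, so the ratios of these libraries rest on few reads. H2-Ab1 over H2-Aa had medians of 1.77, 1.68 and 1.80 in the 3 groups. Over all libraries Cd74 and H2-Aa had a Pearson r of 0.39 in log2 CPM, and 0.68 after the mean of each group and batch had been taken off (n = 24 libraries, a description).

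**Figure D2:**
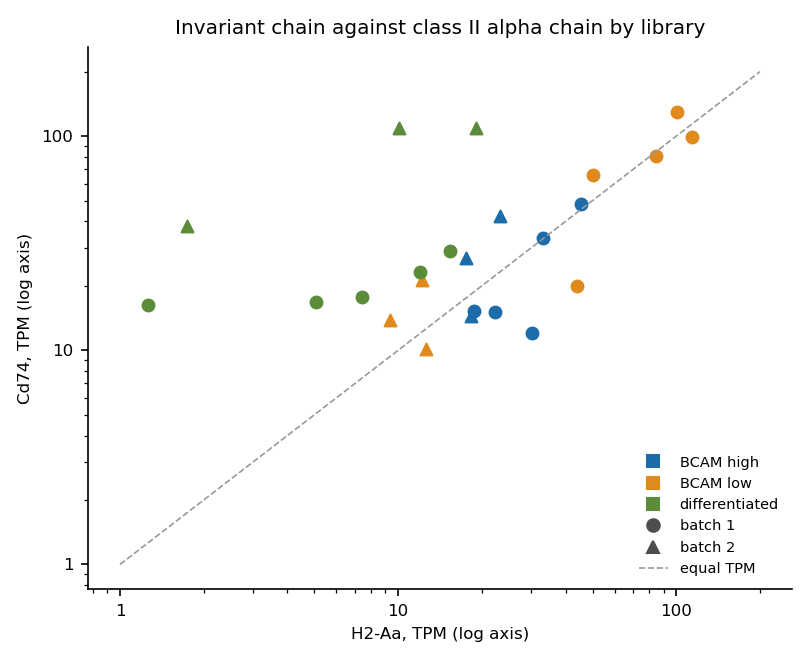
Cd74 against H2-Aa in TPM on log axes, 1 point per library, with a dashed line of equal TPM. BCAM libraries lie on both sides of the line, with ratios of 0.396 to 1.83, and all 8 differentiated libraries lie above it, with ratios of 1.89 to 21.9.

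Ciita (ENSMUSG00000022504, chromosome 16, 10480059 to 10528418, plus strand) was near the limit of detection. It ran from 0.490 to 7.07 CPM in BCAM high (median 1.81), from 0.222 to 8.24 in BCAM low (median 1.52) and from 0.427 to 4.53 in differentiated (median 2.04). The 3 groups overlapped. Its highest value, in BCAM low 3, came from a library with the lowest H2-Aa of batch 1 in its group, and BCAM low 4, the library highest in H2-Aa, held 0.510 CPM of Ciita. Without the filter on low counts Ciita had a log2 fold change of 0.24 (SE 0.65) between BCAM high and BCAM low, 0.22 (SE 0.66) between BCAM high and differentiated and -0.020 (SE 0.67) between BCAM low and differentiated (edgeR QL, adjusted p = 0.920, 0.918 and 1). Each standard error was larger than the fitted difference, at 1 to 36 counts per library.

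How the basal subsets differ was addressed by setting BCAM high against BCAM low. Of the 7 tested members 0 passed the threshold (edgeR's quasi-likelihood test, QL, with Benjamini-Hochberg adjustment over 12211 genes at 0.05), where 7.02% of all genes were called (2.43% with BCAM high above, 4.59% with it below) and 2537 genes had an unadjusted p under 0.05. The 4 class II members had lower fitted means in BCAM high, by log2 fold changes of -1.02 for H2-Aa (SE 0.48, adjusted p = 0.226), -1.07 for H2-Ab1 (SE 0.52, 0.246), -1.17 for H2-Eb1 (SE 0.49, 0.166) and -1.34 for Cd74 (SE 0.56, 0.170; edgeR QL). H2-K1 and H2-D1 had small fitted differences, -0.33 (SE 0.12, adjusted p = 0.0915) and -0.27 (SE 0.10, 0.114; edgeR QL), and were lower in BCAM high in 8 of 8 same-numbered comparisons. B2m, at 0.07 (SE 0.09, edgeR QL, adjusted p = 0.729), was higher in 4 of 8.

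The fitted class II differences were larger in batch 1 than in batch 2. In the fit that gave every group a mean per batch, the log2 fold changes in batch 1 were -1.49 for H2-Aa, -1.48 for H2-Ab1, -1.51 for H2-Eb1 and -1.80 for Cd74, of which Cd74 was called (edgeR QL, adjusted p = 0.0444; 4.82% of all genes were called, 1.65% higher and 3.17% lower). In batch 2 they were 0.40, -0.0088, -0.19 and 0.36, none called (smallest adjusted p = 0.857, edgeR QL). The change of the difference between batches was not called for any member (1.06% of all genes were, 0.172% upward and 0.884% downward), with 1.89 for H2-Aa (95% interval 0.22 to 3.56, edgeR QL, adjusted p = 0.389) and 2.16 for Cd74 (0.48 to 3.83, 0.307). A fit on batch 1 libraries alone called H2-Aa, H2-Eb1 and Cd74, and a fit without the differentiated libraries called H2-Eb1, H2-K1 and H2-D1. The fit without the differentiated libraries also called more genes in all than the main fit, as given below under the dependence on processing. For the fit on batch 1 alone the share of all genes called is not given. In batch 2 it was H2-K1 and H2-D1 whose BCAM high and BCAM low libraries, 3 against 3, did not overlap. Their differences of -0.45 and -0.40 were not called (edgeR QL, adjusted p = 0.0903 and 0.113), where 6.13% of all genes were, 1.65% higher and 4.48% lower. The share of all genes without overlap was not counted, here or for the other statements on overlap. Statements on overlap refer to CPM where no other unit is named.

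**Figure D3:**
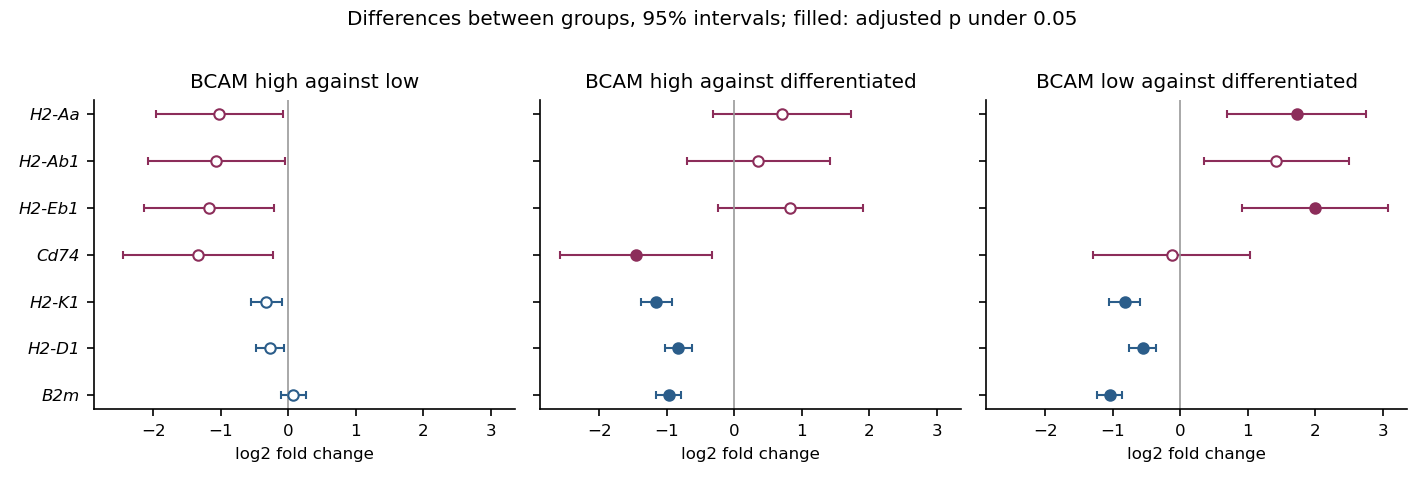
Fitted log2 fold changes of the 7 tested members in the 3 group comparisons with 95% intervals (from the SE, normal approximation); filled points passed an adjusted p of 0.05. The class II genes (top 4) have intervals several times as wide as those of the class I genes (bottom 3), and no member is filled between BCAM high and BCAM low.

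Immune cell markers, like the class II chains, had their highest sums in CPM in the BCAM low libraries of batch 1. In TPM this did not hold for all 5, since the marker sum of BCAM low 5, at 71.6, lay below that of BCAM high 4, at 78.7. BCAM low 4 and 1 were highest in TPM too, at 213 and 176. The 25 markers of immune cells summed to 51.1 to 74.0 CPM in BCAM high of batch 1, to 79.5 to 291 CPM in BCAM low of batch 1 and to 33.9 to 58.7 CPM in BCAM low of batch 2. The highest sums were those of BCAM low 4, at 291 CPM, and BCAM low 1, at 169 CPM, which were also the highest 2 libraries in H2-Aa, H2-Ab1, H2-Eb1 and, in the BCAM groups, Cd74. In the differentiated libraries the sum was 37.7 to 76.7 CPM, and there markers and chains did not peak together. Differentiated 4, highest in markers at 76.7 CPM, held 14.4 CPM of the 3 chains summed. Its rank rests on 1 untested marker, Ccr7, at 27.8 CPM there, 75.5 CPM in BCAM low 4 and at most 2.02 CPM elsewhere. The next library in markers, differentiated 3 at 72.3 CPM, held 59.1 CPM of the chains. Differentiated 6, highest in the chains at 109 CPM, had a marker sum of 42.4 CPM. Of the 25 markers 8 were tested, and 0 passed in BCAM high against BCAM low, with a median log2 fold change of -0.62; Cd207 and Nkg7 were at 0 in every BCAM low library. Ctss, a protease of class II processing, is not among these markers and comes from the list of other class II genes described below. It was lower in BCAM high by -1.47 (SE 0.45, edgeR QL, adjusted p = 0.0478). Of the 12 tested genes of that list 2 were called in this comparison, and their median log2 fold change was 0.089. Without BCAM low 1 and 4, a choice made after the data had been seen, the differences were -0.58 for H2-Aa, -0.63 for H2-Ab1, -0.81 for H2-Eb1 and -0.67 for Cd74, and H2-K1 was called at -0.41 (edgeR QL, adjusted p = 0.0473). As these 2 libraries were also the highest in the class II chains, leaving them out lowers the class II differences whatever the cause. This fit therefore decides nothing about immune cells, here or below. The other 3 BCAM low libraries of batch 1 held 47.4 to 68.3 CPM of H2-Aa, above all BCAM high libraries in CPM though not all of them in TPM, with marker sums of 79.5 to 104 CPM. What part immune cells had in these levels was not tested.

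**Figure D4:**
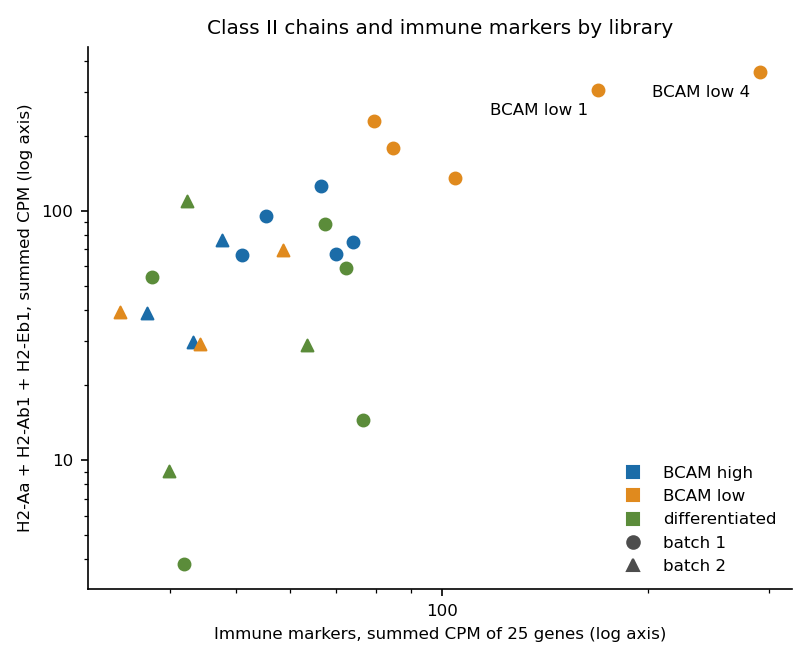
Summed CPM of H2-Aa, H2-Ab1 and H2-Eb1 against the summed CPM of 25 immune cell markers, both on log axes, 1 point per library. The 5 BCAM low libraries of batch 1 lie at the upper right, with marker sums of 79.5 to 291 CPM and chain sums of 135.7 to 361 CPM, and BCAM low 1 and 4 are named.

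Against the differentiated group, 2 of the 3 class II chains were higher in BCAM low and the 3 class I genes lower. H2-Aa was higher in BCAM low by a log2 fold change of 1.72 (SE 0.53, edgeR QL, adjusted p = 0.0149) and H2-Eb1 by 2.00 (SE 0.55, 0.00730), each in 7 of 8 same-numbered comparisons, where 33.5% of all genes were called and 16.3% were higher. H2-Ab1, at 1.42 (SE 0.55, edgeR QL, adjusted p = 0.0505), and Cd74, at -0.12 (SE 0.59, 0.897), were not called. H2-Ab1 was called in 7 of 13 alternative settings, among them log2(TPM + 0.1) at 2.22 (limma, adjusted p = 0.00779) and edgeR without TMM factors at 1.85 (0.00973), and without BCAM low 3, 7 or 8 or differentiated 6. The call of H2-Aa was lost without BCAM low 1 and 4 (1.28, edgeR QL, adjusted p = 0.0761), while H2-Eb1 kept its call (1.64, 0.0376). In batch 1 the differences were 2.68 for H2-Aa, 2.15 for H2-Ab1 and 2.84 for H2-Eb1, all called (edgeR QL, adjusted p = 6.33e-04, 0.0143 and 0.00137; 33.1% of all genes called, 16.2% higher and 16.9% lower), and the BCAM low libraries lay above all differentiated ones in CPM, though in TPM not for H2-Ab1. In batch 2 they were -0.30, -0.020 and 0.33, with 0 of the 3 chains called (20.9% of all genes were, 11.1% higher and 9.79% lower), and there Cd74 was lower in BCAM low by -2.67 (edgeR QL, adjusted p = 0.00799). Of the 8 tested immune markers 5 were higher in BCAM low than in differentiated and 2 lower, with a median log2 fold change of 1.79 (edgeR QL). Laptm5 was at 3.09 and Csf1r at 1.08. Zbtb46 held 18.6 and 35.4 CPM in differentiated 6 and 7, against at most 4.80 CPM in any BCAM low library. Cd79b held 10.2 and 11.5 CPM there, against at most 5.72 CPM in BCAM low. The part of immune cells in the class II and Cd74 differences was not tested.

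The difference between the batches was itself called for 3 members in this comparison, where 11.4% of all genes were called, 6.81% upward and 4.55% downward. It was -2.98 for H2-Aa (SE 0.92, edgeR QL, adjusted p = 0.0409), -3.92 for Cd74 (SE 0.85, 0.00470) and 0.72 for H2-K1 (SE 0.20, 0.0150). Leaving out 1 library moved the value of H2-Aa between -3.55 (without differentiated 8) and -1.60 (without differentiated 6). Its call was lost without BCAM low 1, 4, 6, 7 or 8 or differentiated 2, 4, 6 or 7, and that of H2-K1 without BCAM low 6 or differentiated 7, and without BCAM low 1 and 4 only Cd74 was called, at -3.33 (edgeR QL, adjusted p = 0.0156).

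Between BCAM high and differentiated the calls of the class II genes depended on the scaling. With TMM factors the 3 chains were not called and Cd74 was lower in BCAM high. H2-Aa had a log2 fold change of 0.70 (SE 0.52, edgeR QL, adjusted p = 0.3003), H2-Ab1 0.36 (SE 0.54, 0.638) and H2-Eb1 0.83 (SE 0.55, 0.243), and Cd74 -1.46 (SE 0.57, 0.0473), lower in 8 of 8 same-numbered comparisons; 41.3% of all genes were called, 19.4% higher and 22% lower. On log2(TPM + 0.1), where the median gene shifted by 0.75, H2-Aa was at 1.92, H2-Ab1 at 1.54 and H2-Eb1 at 2.46, all called higher in BCAM high (limma, adjusted p = 0.00332, 0.0368 and 0.00886), and Cd74 was at -0.54 and not called (0.405). Without TMM factors, where the median gene shifted by 0.57, H2-Aa and H2-Eb1 were called, at 1.28 and 1.41 (edgeR QL, adjusted p = 0.0384 and 0.0310), and Cd74 was not, at -0.91 (0.180). Of 8 tested immune markers BCAM high had 3 higher and 2 lower, with a median log2 fold change of 1.12 (edgeR QL). The Cd74 call also depended on single libraries: it was lost without BCAM high 2, 3, 4, 5, 7 or 8, BCAM low 1, 2, 5 or 6, or differentiated 1, 6 or 7, with an adjusted p of up to 0.130 (edgeR QL) without differentiated 6, where the log2 fold change was -1.01. Without differentiated 6, H2-Aa and H2-Eb1 were called higher in BCAM high, at 1.37 and 1.43 (edgeR QL, adjusted p = 0.0163 and 0.0235). The Cd74 difference was -0.55 in batch 1 and -2.30 in batch 2 (edgeR QL, adjusted p = 0.466 and 0.0106; 33.7% of all genes called in batch 1, 15.4% higher and 18.4% lower, and 32.2% in batch 2, 15.3% higher and 16.9% lower). The change of this difference between batches, -1.76, was not called (adjusted p = 0.231, edgeR QL), nor was that of any other tested member, where 8.69% of all genes were called, 5.41% upward and 3.28% downward. Both comparisons share the differentiated libraries, of which 6 and 7, with 203.9 and 113 CPM of Cd74, also had the highest thyroid marker sums, 83102 and 116833 CPM; the part of other cell types in these values was not tested.

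The class I genes were lower in both BCAM groups than in the differentiated group. H2-K1 (ENSMUSG00000061232, chromosome 17, 33996017 to 34000347, minus strand) ran from 443 to 669.7 CPM (median 495) in BCAM high, from 531 to 743 (median 645) in BCAM low and from 704 to 1553 (median 1185) in differentiated. No BCAM high library reached the lowest differentiated one in CPM, while in TPM differentiated 6, at 668, lay below every BCAM high library. H2-D1 (ENSMUSG00000073411, chromosome 17, 35262730 to 35267499, plus strand) ran from 428 to 685 CPM (median 579.6), from 514 to 802 (median 677) and from 583 to 1345 (median 1073), with overlap between the groups. B2m (ENSMUSG00000060802, chromosome 2, 122147686 to 122153083, plus strand) ran from 154 to 368 CPM (median 297), from 124 to 349 (median 272) and from 315 to 677 (median 546.5). The overlaps of H2-D1 and B2m between BCAM high and differentiated arose across batches: within each batch the libraries of both genes did not overlap.

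The 3 class I members were called lower in both comparisons. In BCAM high against differentiated the log2 fold changes were -1.15 for H2-K1 (SE 0.12, edgeR QL, adjusted p = 5.82e-09), -0.83 for H2-D1 (SE 0.10, 1.90e-07) and -0.97 for B2m (SE 0.09, 1.84e-09). In BCAM low against differentiated they were -0.82 (SE 0.12, 3.05e-06), -0.56 (SE 0.10, 1.13e-04) and -1.04 (SE 0.09, 9.38e-10), where 17.1% of all genes were called lower. These values are relative to most other genes, since TMM factors centre the median gene near 0. On log2(TPM + 0.1) without TMM factors, where the median gene itself shifted by 0.75 in BCAM high against differentiated and by 0.48 in BCAM low, H2-D1 moved to -0.043 and -0.0038 and B2m to -0.21 and -0.54. On that scale H2-K1 and, in BCAM low, B2m stayed called (limma, adjusted p = 0.0193, 0.0223 and 6.97e-04), and H2-D1 in both and B2m in BCAM high did not (0.729, 0.980 and 0.114). Without TMM factors H2-D1 in BCAM low was at -0.18 and not called either (edgeR QL, adjusted p = 0.163). Less the shift of the median gene, H2-K1 was at -1.22, H2-D1 at -0.80 and B2m at -0.96 in BCAM high on the TPM scale. In batch 2 the differences of BCAM low from differentiated were smaller, -0.36 for H2-K1 and -0.21 for H2-D1 (edgeR QL, adjusted p = 0.106 and 0.376), while B2m was at -1.11 (1.65e-06).

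Class I genes moved together from library to library. The Pearson r of log2 CPM was 0.94 between H2-K1 and H2-D1, 0.79 between H2-K1 and B2m and 0.87 between H2-D1 and B2m, and 0.77, 0.68 and 0.59 after the mean of each group and batch had been taken off (n = 24 libraries, a description). Between the classes it was -0.38 for H2-Aa and H2-K1 and -0.08 for H2-Aa and B2m. After the mean of each group and batch had been taken off, these were -0.0043 and 0.15. In TPM the ratio of B2m to the 2 heavy chains together had medians of 0.299, 0.252 and 0.267 in BCAM high, BCAM low and differentiated, with overlapping ranges.

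B2m differed between the batches in every group, H2-D1 and H2-K1 in part of the groups, and H2-Aa and H2-Eb1 in BCAM low. Over all groups H2-K1, H2-D1 and B2m were lower in batch 2, by -0.28 (SE 0.10, edgeR QL, adjusted p = 0.0423), -0.46 (SE 0.09, 4.68e-04) and -0.92 (SE 0.08, 5.93e-09), where 21.4% of all genes were called, 11.8% higher and 9.61% lower, and the 4 class II genes were not called. The H2-K1 call was lost without BCAM high 2 or 8, BCAM low 3 or 8, or differentiated 1, 2, 3, 5, 6, 7 or 8, and without differentiated 6 the 3 class II chains were called as well (H2-Aa at -1.62, edgeR QL, adjusted p = 0.00395). B2m was lower in batch 2 within each group, by -0.97 within BCAM high, -0.95 within BCAM low and -0.83 within differentiated (edgeR QL, adjusted p = 3.55e-05, 2.22e-05 and 5.86e-05), with no overlap of batches. H2-D1 was lower within BCAM high (-0.42, edgeR QL, adjusted p = 0.0483; lost without any of BCAM high 1 to 7 or differentiated 1, 3, 5 or 6) and differentiated (-0.76, 1.39e-04), and H2-K1 within differentiated (-0.71, 6.03e-04).

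Within BCAM low, H2-Aa was lower in batch 2 by -2.76 (SE 0.65, edgeR QL, adjusted p = 0.00831) and H2-Eb1 by -2.47 (SE 0.72, 0.0300), where 11.1% of all genes were called, 6.48% higher and 4.66% lower. The H2-Eb1 call was lost without BCAM low 1, 4, 6, 7 or 8. H2-Ab1, at -2.11 (SE 0.76, edgeR QL, adjusted p = 0.0859), and Cd74, at -1.98 (SE 0.63, 0.0506), were not called. Without BCAM low 1 and 4 H2-Aa was still called (-2.37, edgeR QL, adjusted p = 0.0386) and H2-Eb1 was not (-2.15, 0.106). Within differentiated Cd74 was higher in batch 2 by 1.93 (SE 0.56, edgeR QL, adjusted p = 0.0201), where 20.1% of all genes were called, 9.98% higher and 10.2% lower, and the call was lost without differentiated 6 or differentiated 7. Within BCAM high no class II gene was called, and 8.04% of all genes were, 4.93% higher and 3.11% lower. Beside these, within BCAM low 3 of 8 immune markers were lower and all 6 ciliated markers higher in batch 2 (edgeR QL, median log2 fold changes -1.98 and 4.52); whether a change in the cells sorted had a part was not tested, and what else differed between batches cannot be told apart from it.

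**Figure D5:**
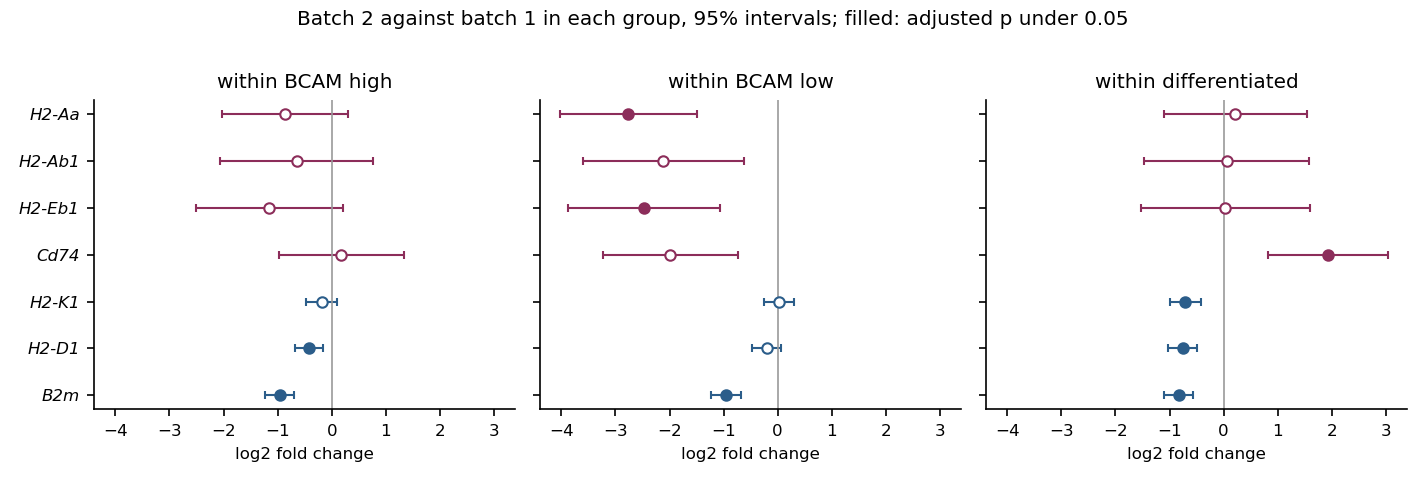
Fitted log2 fold changes of batch 2 against batch 1 within each group for the 7 tested members, with 95% intervals (from the SE, normal approximation); filled points passed an adjusted p of 0.05. B2m is lower in batch 2 in all 3 groups, H2-Aa and H2-Eb1 are lower in BCAM low, and Cd74 is higher in differentiated.

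The other genes of class II presentation came from a list that includes proteases, peptide exchangers and promoter-binding factors. Of 18 listed genes 12 were tested. Between BCAM high and BCAM low 0 were higher and 2 lower in BCAM high: Ctss, above, and Lgmn, an endosomal protease, at -0.77 (SE 0.18, edgeR QL, adjusted p = 0.00559), where 7.02% of all genes were called. Against differentiated 2 were higher and 2 lower in BCAM high, where 41.3% of all genes were called, and 2 higher and 3 lower in BCAM low, where 33.5% were. Nfyb, a subunit of the factor that binds the Y box, averaged 42.6, 36.3 and 22.7 CPM in BCAM high, BCAM low and differentiated and was higher in both BCAM groups (0.89 and 0.64, edgeR QL, adjusted p = 3.50e-04 and 0.0103). March8, a ligase that takes class II molecules from the surface, averaged 21.4 CPM in BCAM high and 59.1 CPM in differentiated and was lower in both (-1.44 and -1.19). H2-DMb1, a chain of the peptide exchanger H2-DM, averaged 1.72 CPM in BCAM low of batch 2 and 24.3 CPM in differentiated of batch 2; it was lower in batch 2 within BCAM low (-2.14) and higher within differentiated (1.82). H2-DMb2, H2-Oa, H2-Ob, H2-Eb2, Rfxap and March1 had at most 37 counts in any library and were not tested.

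The other class I chains and the loading genes were measured in the same way. Of 17 further class I chains 12 were tested: 0 passed in BCAM high against BCAM low, 4 were lower in BCAM high than in differentiated (H2-Q2, H2-Q6, H2-Q7, H2-T23) and 3 were lower in BCAM low (H2-Q2, H2-Q6, H2-T23), with none higher; 22% and 17.1% of all genes were lower in these comparisons. H2-Q2 averaged 6.68, 7.98 and 27.6 CPM in the 3 groups, and H2-T23, a non-classical chain, 55.1, 59.0 and 97.6 CPM. Of 15 loading genes 14 were tested. Erap1, which trims peptides in the endoplasmic reticulum, was higher in BCAM high than in BCAM low by 0.50 (SE 0.13, edgeR QL, adjusted p = 0.0131), with means of 74.6 and 52.3 CPM. Against differentiated 1 was higher and 6 lower in BCAM high, beside 41.3% of all genes called and 22% lower, and 0 higher and 5 lower in BCAM low, beside 33.5% called and 17.1% lower, among them the chaperones Calr (-1.31 and -1.26) and Pdia3 (-0.92 and -0.88). Calr, Pdia3 and Canx also serve general protein folding. Nlrc5, the class I activator, had at most 19 counts in any library and was not tested.

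All 10 genes of the route from interferon gamma to MHC were tested. Between BCAM high and BCAM low, where 7.02% of all genes were called, 1 was higher and 1 lower: Socs3, an inhibitor of cytokine signalling, at 0.76 (means of 538 and 317 CPM, edgeR QL, adjusted p = 2.23e-04), and Ifngr2, a receptor chain, at -0.52 (38.7 and 54.9 CPM, 0.0271). Against differentiated 2 were higher and 2 lower in BCAM high, and 1 higher and 1 lower in BCAM low, with 41.3% and 33.5% of all genes called; Irf8, a factor of myeloid and B cells, was lower in both (-2.23 and -1.14). Irf1, an interferon-induced transcription factor, had a log2 fold change of 0.19 between BCAM high and BCAM low and was not called. Of 8 costimulation and checkpoint genes 5 were tested. Cd80 and Icosl, ligands for T cells, were higher in both BCAM groups than in differentiated, with means of 11.2, 8.39 and 1.04 CPM and of 9.24, 8.10 and 1.10 CPM, and Cd40 was lower (2.40, 1.97 and 14.2 CPM). Icam1, an adhesion ligand, was higher in BCAM high than in BCAM low by 0.73 (555 and 333 CPM, edgeR QL, adjusted p = 0.0165). Cd86, Cd274 and Pdcd1lg2 had at most 28 counts in any library.

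The genes most like the class II members were found over 9039 candidate genes with a mean of at least 10 CPM, by Pearson r of log2 CPM with the mean of H2-Aa, H2-Ab1, H2-Eb1 and Cd74 over 24 libraries. They were Reps1 (0.72), Emp2 (0.72), Sppl3 (0.70), Zfp316 (0.70) and Cmah (0.69); after the mean of each group and batch had been taken off they were Mtcl1 (0.80), Cul5 (0.80), Ifrd2 (0.79), Chchd5 (0.78) and Nr3c1 (0.77). No gene stood in both sets of 5. Candidates were tested genes above the floor of 10 CPM, so at most 8 of the 25 immune markers could be ranked. The lack of these markers among the genes named therefore says little about immune cells. For the mean of the 3 class I members they were P4ha2 (0.94), Tagln2 (0.92), Hp (0.92), Ctsh (0.92) and Cd36 (0.92), and after centring Snrpb (0.88), Clic1 (0.87), Ctsh (0.79), Rsph9 (0.78) and Tubb4b (0.78). Ctsh, a lysosomal protease, stood in both class I sets, with means of 132, 183 and 345 CPM in BCAM high, BCAM low and differentiated. The values describe these libraries, which share groups and batches.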

How the data were processed

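Each library had 1 transcript table with estimated counts and TPM, made by the authors. Per the submitters' processing notes kallisto (version 46.1), Picard and build GRCm39 were used; its index and options: not given in the sources used here. The authors' estimated counts carry no normalization, and the deposited TPM values are scaled by length and library. From these, 116374 of 117497 transcripts were matched by identifier to GENCODE M21 (GRCm38), whose coordinates are printed; 1123 were left out (0.317% to 0.594% of counts). Estimated counts were summed per gene and rounded. The test was edgeR (version 4.0.16) QL with TMM factors, its own filter on low counts by group, all 24 libraries, and batch as a term; a second fit gave each group and batch a mean. P-values were adjusted over 12211 genes with a threshold of 0.05. CPM use TMM-scaled totals. Read pairs were 38 bp per end, without molecular identifiers, so counts carry amplification noise beyond counting error.

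The members and lists were chosen with earlier results of these data known. All members are reported; of each list, up to 4 called genes per comparison and direction with the largest change were eligible to be named, and others, chosen after their values were seen, are Irf1 and those not tested. One item is not reported here. The like genes are the 5 highest of each ranking. Alternatives were DESeq2 (version 1.42.0) size factors and Wald test, no filter, a replicate block, no batch term, 2 groups only, limma (version 3.58.1) on log2(TPM + 0.1) and log2(TPM + 1), each batch alone and leaving out each library; added later were no TMM factors, protein-coding transcripts only, and the fit without BCAM low 1 and 4. The scripts were tested on simulated data. No gene set test was run.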

Additional observations from a re-analysis of the deposited data

Results flagged for a closer look

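A library far from the others of its group was found in 2 of 24 checks of a gene in a group of 8 (8 genes, 3 groups); chance alone gives about 1 in 20. Ciita was at 8.24 CPM in BCAM low 3, with the next library at 2.60 CPM. H2-K1 was at 669.7 CPM in BCAM high 2, with the next at 526 CPM.

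The difference between BCAM low and differentiated changed from batch 1 to batch 2 for 3 members by a test of the change itself (edgeR QL interaction). The change was -2.98 on the log2 scale for H2-Aa (adjusted p = 0.0409), -3.92 for Cd74 (0.00470) and 0.72 for H2-K1 (0.0150). H2-Aa was higher in all 5 BCAM low libraries of batch 1 than in any differentiated library of that batch, and overlapped in batch 2. For Cd74 the 3 BCAM low libraries of batch 2 lay below all 3 differentiated ones. The cause was not tested.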

How the results depend on the processing

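Between BCAM high and BCAM low, 857 genes and 0 members were called. The count of genes was 545 without the batch term, 1297 with these 2 groups only, 543 in batch 2 alone and 566 with protein-coding transcripts only. The count of members was 3 with 2 groups only, 3 in batch 1 alone, 1 with protein-coding transcripts only and 1 without BCAM low 1 and 4. Between BCAM high and differentiated, 5044 genes (2363 higher, 2681 lower) became 7688 on log2(TPM + 0.1) (6809 and 879), 7713 on log2(TPM + 1) and 7678 without TMM factors (6386 and 1292). Between BCAM low and differentiated, 4086 genes (1996 and 2090) had splits of 4277 and 624 on log2(TPM + 0.1) and 4774 and 884 without TMM factors; batch 2 alone gave 2221 genes and 1 member. The split between BCAM high and BCAM low, 297 and 560, became 592 and 189 and 871 and 372 under these scalings. The batch term went from 2618 to 1706 genes on log2(TPM + 0.1). Without BCAM low 1 and 4, 1 member was called between batches within BCAM high and 1 for the change of BCAM low against differentiated between batches. The cause was not tested, beyond the smaller number of libraries in part of the settings.

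Values that changed sign were called in neither setting, with 2 exceptions in BCAM low against differentiated, H2-Aa and Cd74, for which a p is given. Between BCAM high and BCAM low H2-K1 was at 0.026 on both TPM scales, and in batch 2 alone H2-Aa was at 0.40 and Cd74 at 0.36. BCAM high against differentiated had H2-Ab1 at -0.053 in batch 2 alone. BCAM low against differentiated had H2-Aa at -0.34 (edgeR QL, adjusted p = 0.836, against 1.72 and 0.0149 over all libraries) and H2-Ab1 at -0.041 in batch 2 alone, and Cd74 at 0.18 and 0.19 on the TPM scales, 0.28 without TMM factors and 1.25 in batch 1 alone (edgeR QL, adjusted p = 0.0496). The batch term of Cd74 was -0.012 and -0.0095 on the TPM scales. Without BCAM low 1 and 4, H2-K1 within BCAM low was at -0.058 and the change of B2m in BCAM high against BCAM low at 0.014.

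Leaving out 1 library gave 0 to 1 members between BCAM high and BCAM low (1 without BCAM low 4), 3 to 5 between BCAM high and differentiated, 5 to 6 between BCAM low and differentiated and 2 to 5 for the batch term (5 without differentiated 6). Batch within BCAM high gave 1 to 2, within BCAM low 2 to 4 and within differentiated 3 to 4. The changes between batches gave 0 to 0, 0 to 1 (1 without differentiated 8) and 1 to 5 (lowest or highest without BCAM low 6, differentiated 7 or differentiated 8). Uncalled values changed sign within these ranges: Cd74 in BCAM low against differentiated -0.48 to 0.24, in the batch term -0.10 to 0.51 and within BCAM high -0.45 to 0.53; H2-K1 within BCAM low -0.10 to 0.12; H2-Aa, H2-Ab1 and H2-Eb1 within differentiated -1.16 to 0.79, -1.19 to 0.50 and -1.32 to 0.66; the same genes for the change in BCAM high against differentiated -1.66 to 0.29, -1.46 to 0.55 and -1.81 to 0.16; and B2m for the changes in BCAM high against BCAM low -0.16 to 0.15 and in BCAM low against differentiated -0.28 to 0.019.

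Beyond the batch, the labels give same-numbered libraries no shared source. The correlations of their deviations over genes were all above 0 (0.0315 to 0.1762), but over 0.1 in 3, 3 and 1 of 8 pairs in the 3 comparisons, and the own number was best for 8, 8 and 7 of 8, a hint from the data, not the design. With the replicate number as a block, 864, 5129 and 4136 genes and 0, 3 and 6 members were called; Cd74 in BCAM high against differentiated was no longer called (-1.43) and H2-Ab1 in BCAM low against differentiated was (1.60). Class II genes had 0 to 635 counts per library, which limits them more than class I genes, with 245 to 3391.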
